A study of Mus musculus with 8 samples.

Results

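Klf2, Klf4, Klf5, Tfcp2l1, Tbx3 and Gbx2 are 6 transcription factor genes of the naive state of mouse embryonic stem cells, and their N6-methyladenosine (m6A) peaks are described here. They were chosen by function, as factors downstream of LIF and of the 2 inhibitors of 2i medium, and not by any measured value. Earlier results of these data were known when the choice was made. Every peak filed under the Ensembl identifier of a member was taken, which gave 19 of the 25815 peaks of control cells and 19 of the 27612 peaks of Dox cells. The 6 genes are 6 of the 13110 identifiers with a peak in either list.

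The series set cells labelled as Setd2 knockdown against control cells. Setd2 is the gene of the histone methyltransferase that places the H3K36me3 mark on transcribed genes. All cells, controls included, carried a construct for Setd2 knockdown that doxycycline (Dox) switches on, and all grew as spheres, without feeders, in serum-free N2B27. To this were added LIF at 1000 U/ml, PD0325901 at 1 µM to block MEK and CHIR99021 at 3 µM to block GSK3. Dox cells received 1 µg/ml Dox for 4 days and control cells none. Each condition had 2 input libraries and 2 libraries from RNA precipitated with an m6A antibody (IP), 8 libraries in all. Cells without the construct that received Dox are not among the libraries, so what Dox does by itself and what the knockdown does cannot be told apart. Whether the line is 1 clone is not given in the labels. The authors called 1 list of peaks per condition from both replicates together. No spread between replicates can therefore be given, no difference between conditions was tested, and read depth is unknown. Each peak has a fold, the authors' ratio of IP over input, and a false discovery rate (FDR), given here as its log10. A fold ranks peaks within its own list, and folds of the 2 lists are set side by side without a ratio between them.

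m6A is written on nascent messenger RNA by the METTL3-METTL14 complex and read by YTH proteins, which mark many transcripts for decay. In embryonic stem cells the messages of pluripotency factors are known carriers of m6A, and loss of the writer slows exit from the naive state. The 6 genes link the culture signals to that state. STAT3, activated by LIF, induces Klf4, Tfcp2l1 and Gbx2, MEK inhibition protects the KLF2 protein, and GSK3 inhibition relieves TCF7L1 repression of Tfcp2l1. The antibody also recognises a related methylated base next to the cap of many messages, so a peak at the extreme 5′ end can hold either mark.

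All 6 genes carried m6A peaks in both lists, as did 79.9% of all identifiers with a peak. Each of the 19 control peaks shared at least 1 exonic nucleotide with a Dox peak, so 0 of 19 lacked a counterpart (exact 95% interval 0% to 17.6%), against 19.3% of all control peaks. In the Dox list 2 of 19 peaks had no control counterpart (10.5%, interval 1.30% to 33.1%), against 29.1% of all Dox peaks. Both of these lay in Tfcp2l1. Intervals here cover counting error only and treat peaks as independent, although several peaks share a transcript. The members' peaks covered 7243 exonic nucleotides in control and 8023 in Dox, of which 6171 were common to both.

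**Figure D1:**
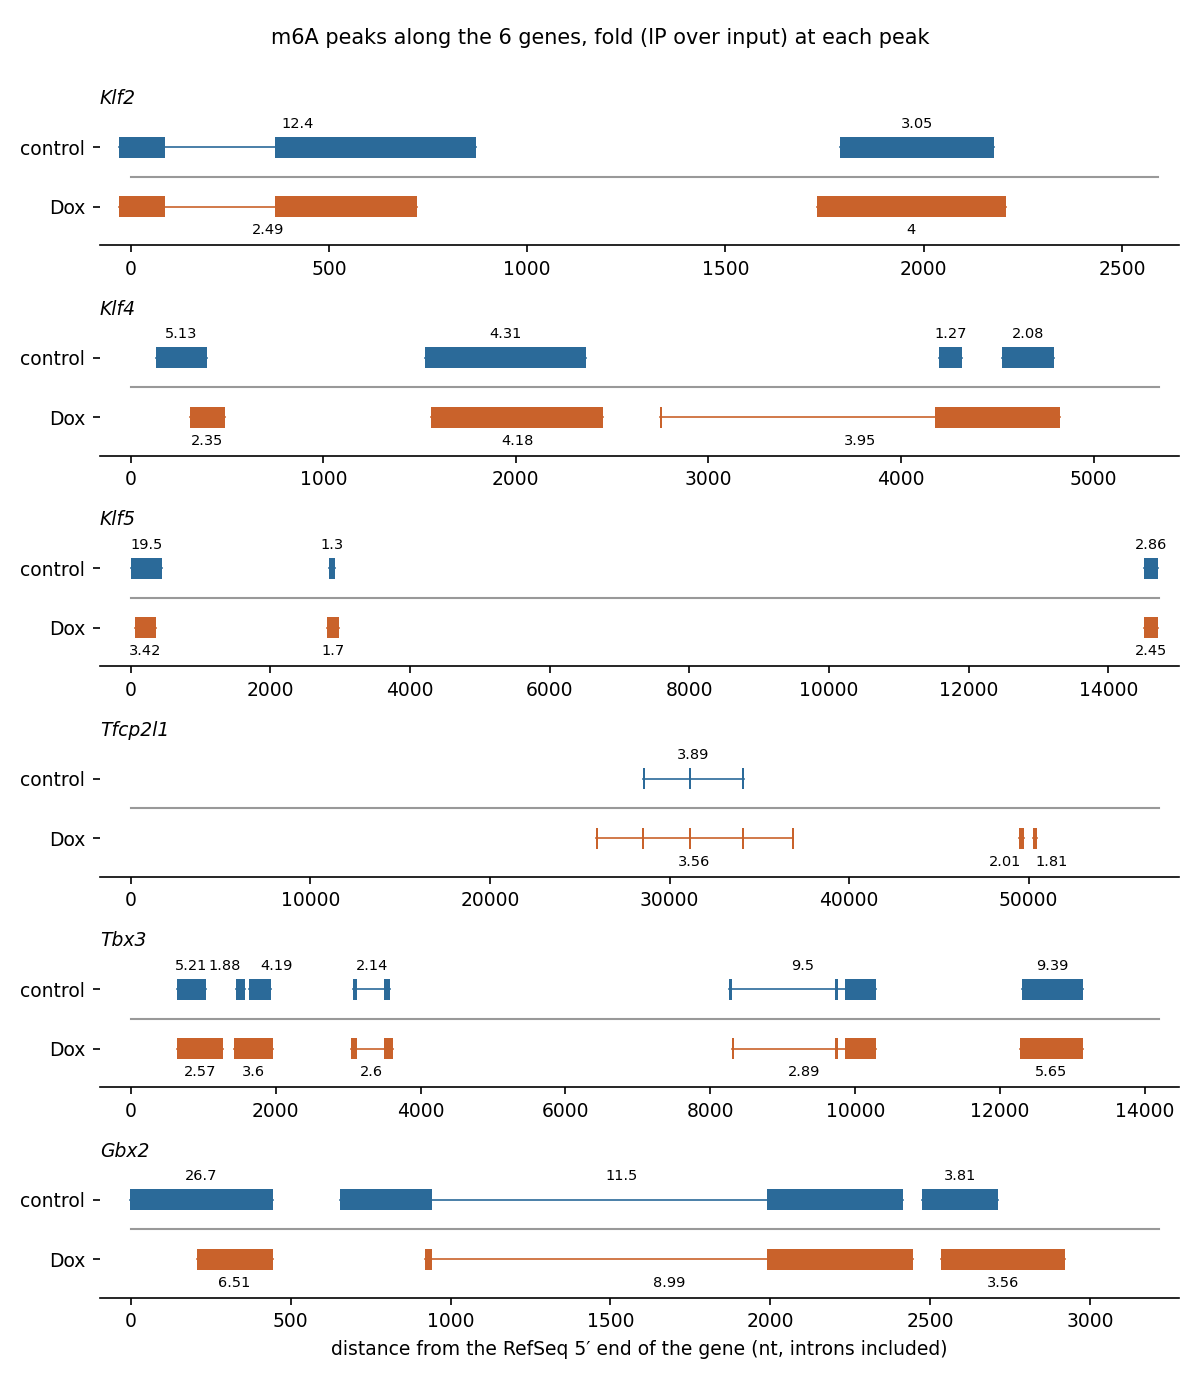
Position of every m6A peak of the 6 genes, plotted as distance from the RefSeq 5′ end of each gene in nucleotides with introns included; blue boxes above the line are exonic parts of control peaks, orange boxes below it those of Dox peaks, thin lines join parts of 1 peak, and the number at each peak is its fold. All 19 control peaks face a Dox peak, and the 2 Dox peaks at the right of Tfcp2l1 (folds 2.01 and 1.81) face none.

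In both lists overlap went with the strength of the peaks. Of the members' control peaks, 13 had a log10 FDR of -20 or less, 2 lay above -20 to -5 and 4 above -5. Over all control peaks, the shares without a Dox peak in these classes were 1.36%, 14.8% and 40.4%. The 4 weak control peaks, 1 each in Klf4 and Klf5 and 2 in Tbx3, all had a counterpart. Among Dox peaks of the members the classes held 11, 6 and 2 peaks, and over all Dox peaks the shares without a control peak were 2.8%, 20% and 52.1%. The 2 unmatched Tfcp2l1 peaks belong to the strongest class.

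Klf2 encodes a zinc finger factor that, of the KLF genes, is the one most tied to MEK inhibition. The gene (ENSMUSG00000055148.7) lies on chromosome 8 of mm10, plus strand, 72319062 to 72321654. Its first control peak ran from 72319033 to 72319934 over 2 exonic parts, with fold 12.4 and log10 FDR -106. The matching Dox peak began at the same base, ended at 72319785, and had fold 2.49 and log10 FDR -92.4. Its second control peak lay near the 3′ end, from 72320852 to 72321239, with fold 3.05 and log10 FDR -231. The Dox peak there was wider, 72320793 to 72321269, with a fold of 4.00 and an FDR listed as 0. The order of the 2 peaks by fold was thus opposite in the 2 lists, with the 5′ peak first in control and the 3′ peak first in Dox. The sequence around its start is shown because both lists place a peak there. It is the RefSeq start window (GRCm38.p6, the assembly of mm10), chr8:72318812-72319062 on the plus strand, written 5′ to 3′ as far as the 30th base under the control peak, with the bases under that peak in capitals.
Klf2: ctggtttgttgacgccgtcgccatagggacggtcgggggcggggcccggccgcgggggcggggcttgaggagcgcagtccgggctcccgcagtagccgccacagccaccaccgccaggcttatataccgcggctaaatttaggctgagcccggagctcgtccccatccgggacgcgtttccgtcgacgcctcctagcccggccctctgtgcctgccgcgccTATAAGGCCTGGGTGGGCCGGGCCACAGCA

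Klf4, a zinc finger factor induced by LIF and one of the classical reprogramming factors, had 4 control and 3 Dox peaks. The gene (ENSMUSG00000003032.8) is on the minus strand of chromosome 4, 55527137 to 55532475. The best supported peak of Klf4 in either list covered nearly the same stretch, 55530110 to 55530947 in control (fold 4.31, log10 FDR -304) and 55530021 to 55530917 in Dox (fold 4.18, log10 FDR -309). These peaks shared 808 nucleotides. Towards the 3′ end, control cells had separate peaks of fold 1.27 (log10 FDR -3.98) and 2.08 (log10 FDR -26.5). A single Dox peak, 55527651 to 55529725, covered both in full, with fold 3.95 and log10 FDR -159. At the 5′ end the control peak (55532078 to 55532346, fold 5.13, log10 FDR -12.6) and the Dox peak (55531988 to 55532167, fold 2.35, log10 FDR -5.83) shared only 90 nucleotides. That is 33.5% of the control peak, the smallest overlap among the 19.

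Klf5, the third KLF gene of the naive network, had 3 peaks in each list, and each faced its counterpart. It lies on chromosome 14, 99298691 to 99313412 (ENSMUSG00000005148.7, plus strand). The first control peak started at the first base of the RefSeq gene and ended at 99299136, with fold 19.5 and log10 FDR -80.7. Its fold was above 94.6% of all control folds. The Dox peak inside it, 99298750 to 99299047, had a fold of 3.42, above 48.2% of Dox folds, and a log10 FDR of -7.67. Such ranks come from lists of different lengths and do not measure a change. The middle peak was the weakest of the gene by fold in both lists, 1.30 in control over 90 nucleotides (log10 FDR -2.91) and 1.70 in Dox over 179 nucleotides (log10 FDR -17.3). The last peak had the same bounds in both lists, 99313197 to 99313405, ending 7 nt before the 3′ end of the gene, with folds of 2.86 and 2.45 and log10 FDRs of -31.1 and -21.9. It is the only member peak with identical bounds, 1 of 19, against 8.55% of all control peaks that have a counterpart.

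Tfcp2l1 encodes a CP2 family factor that acts downstream of both LIF and GSK3 inhibition. The gene spans 118627923 to 118685168 on the plus strand of chromosome 1 (ENSMUSG00000026380.10). It had 1 control peak, spread over 3 exonic parts of 82, 111 and 77 nucleotides between 118656439 and 118662056, with a fold of 3.89, a log10 p of -486 and an FDR listed as 0. The Dox peak there covered those 270 nucleotides in full and reached further exonic stretches on both sides, 5 parts and 390 nucleotides in all, with fold 3.56 and log10 p -414. The central peak was thus alike in position in both lists. The Dox list held a further peak at 118677409 to 118677648 (fold 2.01, log10 FDR -67.8) and another at 118678188 to 118678367 (fold 1.81, log10 FDR -49.4). Neither overlapped a control peak. Their folds lie in the low tail of the list, with only 13.3% and 8.33% of Dox folds below them. Of all Dox peaks in the strongest class 2.8% had no counterpart, and of those in it whose fold was no higher than 2.01, a limit taken from the first of these peaks, 25.5% had none.

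Tbx3, a T-box repressor that can sustain self-renewal when LIF is low, had most peaks of the 6 genes, 6 in control and 5 in Dox. The gene (ENSMUSG00000018604.18, plus strand) lies on chromosome 5, 119670534 to 119684724. Its strongest peak covered 119682836 to 119683675 in control (fold 9.39, log10 p -690) and 119682806 to 119683675 in Dox (fold 5.65, log10 p -387), each with an FDR listed as 0. The peak before it spanned 3 exonic parts and ended at 119680821 in both lists, with fold 9.50 and log10 FDR -168 in control and 2.89 and -29.3 in Dox. In control these 2 distal peaks had nearly equal folds, whereas in Dox the last stood well above the one before it. A pair of further control peaks, of fold 1.88 (log10 FDR -2.23) and 4.19 (log10 FDR -58.3), fell inside 1 Dox peak, 119671958 to 119672497, with fold 3.60 and log10 FDR -61.0. The remaining pair, over 2 exonic parts from 119673606 in control and 119673576 in Dox, was weak in control and of middle support in Dox, with folds of 2.14 and 2.60 and log10 FDRs of -2.78 and -8.04. With Klf4, Tbx3 supplies the 2 of 19 Dox peaks that each covered at least 2 control peaks, against 8.18% of all Dox peaks. No control peak of the members covered 2 Dox peaks, against 4.93% of all control peaks.

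The first peak of Tbx3 began at 119671178 in both lists, 644 nt from the RefSeq 5′ end. It ended at 119671568 in control (fold 5.21, log10 FDR -39.5) and at 119671808 in Dox (fold 2.57, log10 FDR -15.5). A minus-strand identifier, ENSMUSG00000087516.7, has a peak that crosses it by 115 nucleotides in both lists, with a fold of 9.23 in control and 2.34 in Dox. That peak lies in the RefSeq interval of the long noncoding RNA Tbx3os1. It had a log10 p of -28.1 in control, against -40.8 for the Tbx3 peak, and over the shared nucleotides the strands could not be separated, for the reason given next.

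Gbx2, a homeobox gene induced by STAT3, had the highest folds of the 6 genes in both lists. It lies on the minus strand of chromosome 1, 89927962 to 89931176 (ENSMUSG00000034486.8), and had 3 peaks in each list. The 5′ peak covered 89930732 to 89931179 in control, with fold 26.7 and log10 FDR -25.4, and 89930732 to 89930970 in Dox, with fold 6.51 and log10 FDR -2.96. Both ended at the same base inside the gene, and the Dox peak stopped 206 nt short of the 5′ end. The second peak had folds of 11.5 (log10 FDR -52.1) and 8.99 (log10 FDR -10.6), and its Dox counterpart covered the distal exonic part but only 23 nucleotides of the proximal one. The third had folds of 3.81 (log10 FDR -10.6) and 3.56 (log10 FDR -4.38). In the Dox list no Gbx2 peak had a log10 FDR below -10.6, which makes it the least supported of the 6 genes there. Its start sequence is shown because the control peak covers the RefSeq start and the Dox peak does not. It is chr1:89931150-89931426 on the minus strand, from the same RefSeq table, again 5′ to 3′ with the bases under the control peak in capitals, as far as the 30th of them.
Gbx2: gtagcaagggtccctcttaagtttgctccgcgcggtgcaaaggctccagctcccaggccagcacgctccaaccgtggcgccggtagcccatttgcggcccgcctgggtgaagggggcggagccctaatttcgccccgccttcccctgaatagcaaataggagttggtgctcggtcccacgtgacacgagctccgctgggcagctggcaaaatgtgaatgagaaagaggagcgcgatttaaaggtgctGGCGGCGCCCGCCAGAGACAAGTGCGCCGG

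A plus-strand identifier, ENSMUSG00000092627.2, had peaks over the same stretch. In control its peak from 89930234 to 89931206 had fold 23.4 and log10 p -26.6, the same log10 p as the 5′ peak of Gbx2. In Dox its peak from 89930819 to 89930968 had fold 6.51 and log10 p -3.66, both equal to those of the Gbx2 peak. These peaks shared 448 and 150 nucleotides with the Gbx2 5′ peak, less than 80% of the longer peak of each pair. Its control peak from 89930741 to 89931191 shared 439, with fold 21.4 and log10 p -25. A further Dox peak, from 89930801 to 89930921, shared 121, with fold 6.87 and log10 p -3.67. Equal p and fold were found in 15.1% of the 344 control pairs of peaks on opposite strands that shared at least 80% of each peak, and in 14.6% of the 308 Dox pairs. Log10 p values within 10% of each other were more frequent. Of the 344 control pairs 82.8% had them, and of the 308 Dox pairs 89.3%. All 6 pairs with identical bounds, 2 in control and 4 in Dox, had the same p and fold. The labels name a stranded library kit, but these values do not separate the strands. The same identifier also had control peaks over part of the second Gbx2 control peak, sharing 220 and 241 nucleotides with it. The 5′ peak of Gbx2, that part of its second peak and the 115 shared nucleotides of the first Tbx3 peak therefore cannot be assigned to 1 strand.

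**Figure D2:**
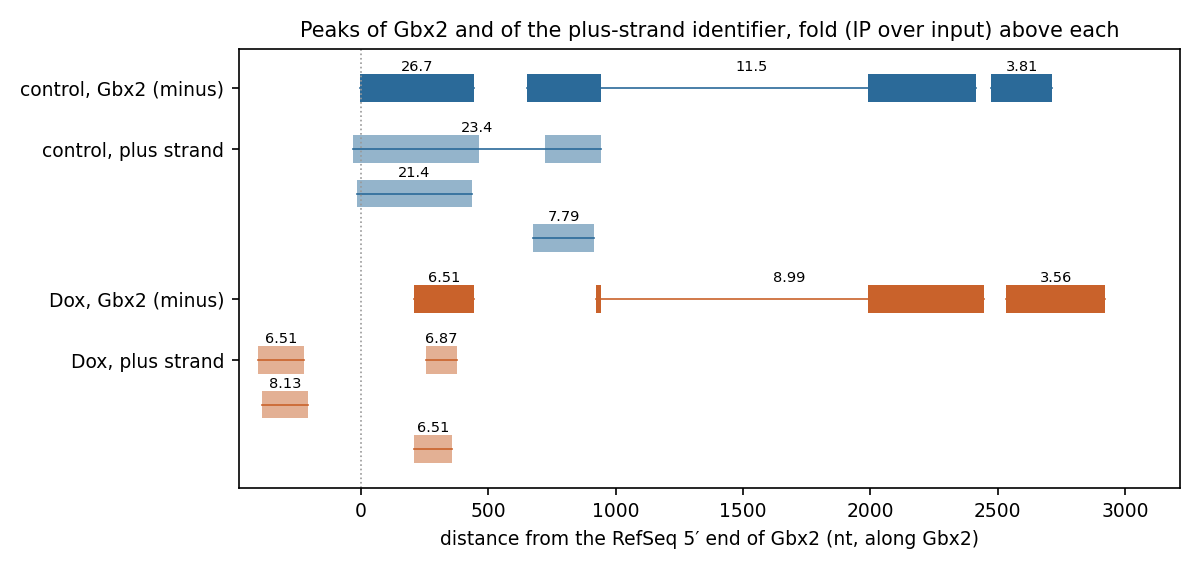
Peaks of Gbx2 (minus strand, full colour) and of the plus-strand identifier ENSMUSG00000092627.2 (pale, stacked) in the control list (blue) and the Dox list (orange), plotted as distance along Gbx2 from its RefSeq 5′ end (dotted line) in nucleotides, with the fold above each peak. In control both strands have peaks that cross the RefSeq 5′ end, and in Dox both have a peak of fold 6.51 inside the gene while other plus-strand peaks lie before its 5′ end.

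The rank of the 5′-most peak within its gene was examined after the values had been seen. In the control list the 5′-most peak had the highest fold of its gene in 4 of the 5 members with at least 2 peaks in both lists, namely Klf2 (12.4), Klf4 (5.13), Klf5 (19.5) and Gbx2 (26.7). Over all genes with at least 2 peaks in both lists, this was so for 51.4% of 5489. In the Dox list it was so for 1 of the same 5 members, Klf5 (3.42), against 40.7% of all these genes. Tfcp2l1 is outside the 5 because it had 1 control peak, and its 5′-most Dox peak (3.56) was also its highest. The 3 members that had it in control and not in Dox were Klf2, Klf4 and Gbx2, and 23.9% of all these genes did the same. None of the 5 had it in Dox and not in control, against 13.2% of all. The exact interval for 3 of 5 runs from 14.7% to 94.7% and holds the share of all genes. It covers counting error only and is no test, because the rank was chosen after the values were seen. The 5′ peak of Gbx2 enters these counts although it cannot be assigned to 1 strand. Ranked by log10 p in place of fold, the 5′-most peak came first in 1 of 5 members in control and in 0 of 5 in Dox. Over all these genes it came first in 33.0% in control and in 28.0% in Dox.

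**Figure D3:**
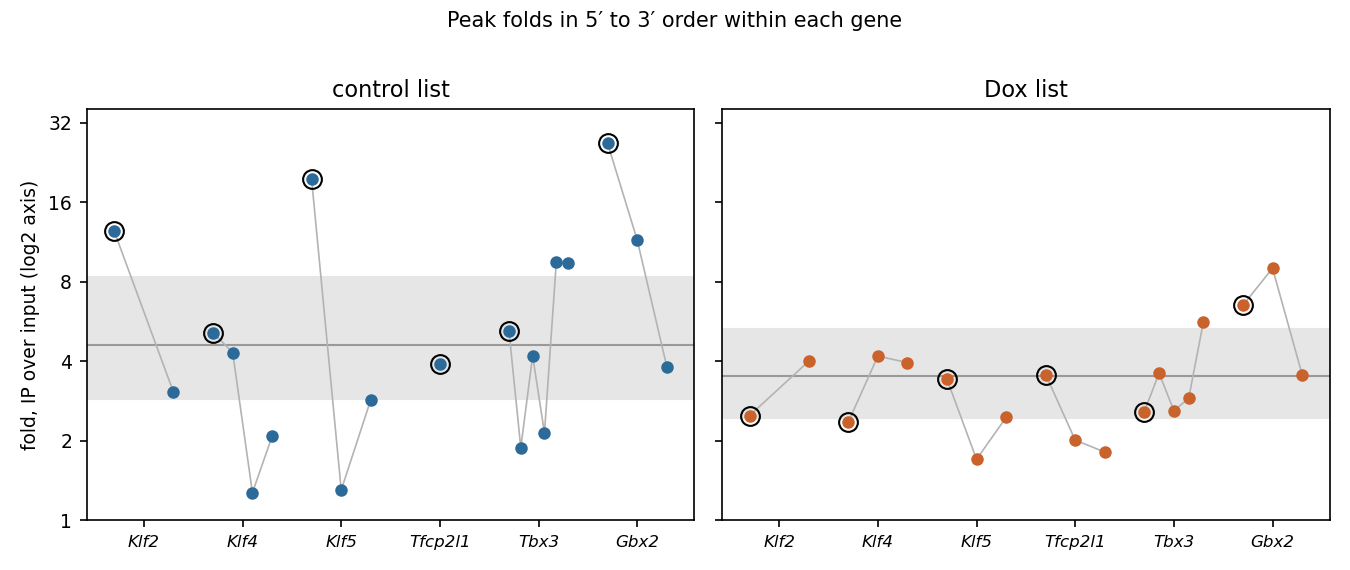
Fold of every member peak (IP over input, log2 axis), by gene and in 5′ to 3′ order within a gene, in the control list (left, blue) and the Dox list (right, orange); black rings mark the 5′-most peak, the grey line the median and the grey band the quartiles of all peaks in that list. In the control list the ringed peak is the highest of Klf2, Klf4, Klf5 and Gbx2, and in the Dox list it is the lowest of Klf2, Klf4 and Tbx3.

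A control peak covered the RefSeq start in Klf2 and Gbx2 and began at it in Klf5. RefSeq start windows, which run from 250 bases before the first transcribed base to 50 after it, were at hand for 4 members: Klf2, Klf4, Tfcp2l1 and Gbx2. In control the first 50 bases were reached by a peak of Klf2 and of Gbx2, against 27.8% of the 8618 named genes with such a window, and in Dox by that of Klf2 alone, against 18.3%. Of the Klf2 window 79 bases lay under the control peak and the same number under the Dox peak, whereas of the Gbx2 window, printed above, 53 lay under the control peak and 0 under the Dox peak.

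The peak of Klf2 began 29 nt before the RefSeq start, at a TATAA. The start base was A for Klf2, Klf4 and Tfcp2l1, as in 34.4% of 32851 start windows, and G for Gbx2, as in 35.6%. GGGCGG, a GC box of the kind that SP and KLF proteins bind, was found on either strand in the windows of Klf2, Klf4 and Gbx2 but not of Tfcp2l1, against 35.7% of all windows. CACCC, the other typical KLF sequence, was found in those of Klf2, Tfcp2l1 and Gbx2, against 57.5%. TATAA was present for Klf2, Klf4 and Tfcp2l1, against 24.9%. GGAC, the core of the commonest m6A sequence, was searched on the transcribed strand of the first 50 bases and was present for Tfcp2l1 only, against 18.9% of windows, a gene without a peak there. These matches describe letters in the windows and show neither binding nor methylation.

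By fold, the members' peaks were ordinary for their lists, while by support they stood high. The median fold was 4.19 for the members and 4.62 for all peaks in control, and 3.42 and 3.51 in Dox. The highest member fold was 26.7 in control and 8.99 in Dox, both in Gbx2. A log10 FDR of -20 or less was reached by 68.4% of the members' control peaks and by 34.6% of all control peaks, and in Dox by 57.9% and 27.8%. The members' peaks were also wide, with a median exonic length of 301 nt in control and 390 nt in Dox, against 211 and 240 nt for all peaks. Of the control peaks 11 of 19 lay wholly inside Dox peaks, against 60.9% of all control peaks with a counterpart.

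**Figure D4:**
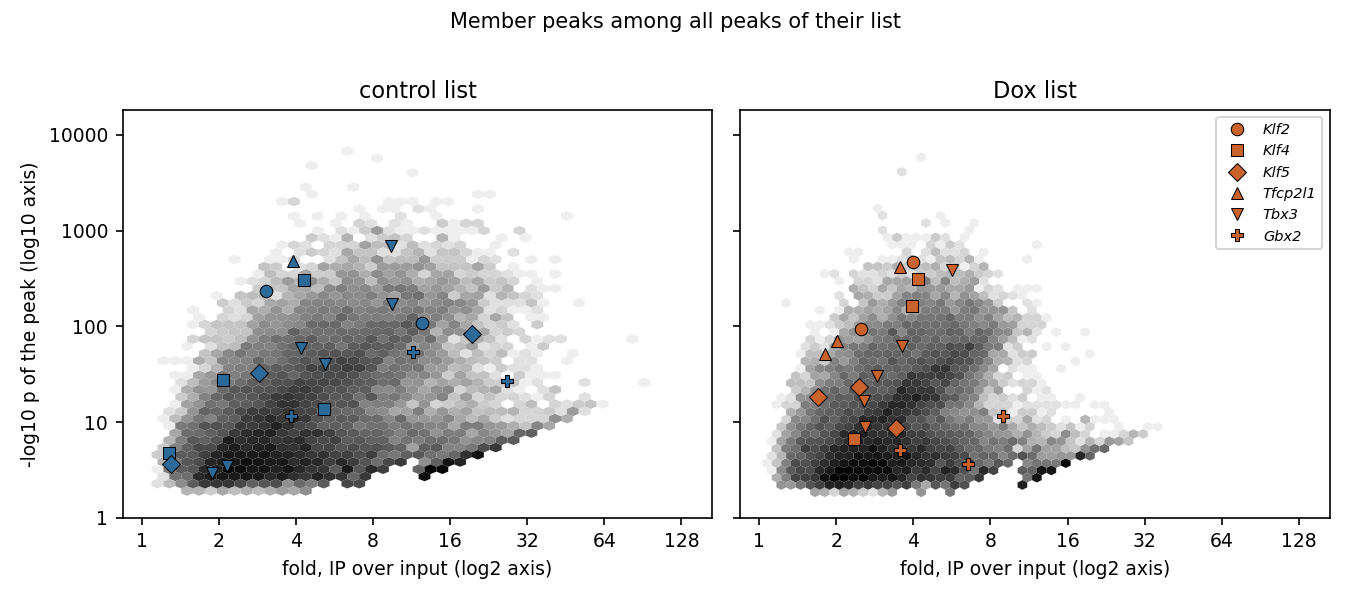
Member peaks (coloured symbols, 1 shape per gene) among all peaks of the control list (left) and the Dox list (right); the x axis is the fold of IP over input (log2 axis), the y axis is minus log10 of the peak's p (log10 axis), and darker grey means more peaks. The strongest peaks of Klf2, Klf4, Tfcp2l1 and Tbx3 lie near the top at moderate folds, and those of Gbx2 lie lower and further right.

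The full overlap of control peaks did not hold when both lists were filtered. In the shorter lists that the authors limited to p up to 1e-05 and fold 2 or more, 1 of 15 control peaks and 2 of 16 Dox peaks had no counterpart, against 24.0% and 22.3% of all peaks. The control peak concerned was the 5′ peak of Gbx2, whose Dox counterpart was too weak for the list. The Dox peaks concerned were the third of Tbx3, whose control counterpart was too weak, and the second of Tfcp2l1. When only peaks of fold 4 or more were taken from each, 6 of 10 control peaks of the members lacked a counterpart (60%, interval 26.2% to 87.8%), against 45.7% of all. Under this filter the members had 10 control peaks and 5 Dox peaks, and the control peaks left unmatched were the 5′ peaks of Klf2, Klf4 and Klf5 and 3 peaks of Tbx3. Of the 5 Dox peaks 1 was unmatched, the 3′ peak of Klf2 (20%, interval 0.505% to 71.6%), against 31.6% of all.

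**Figure D5:**
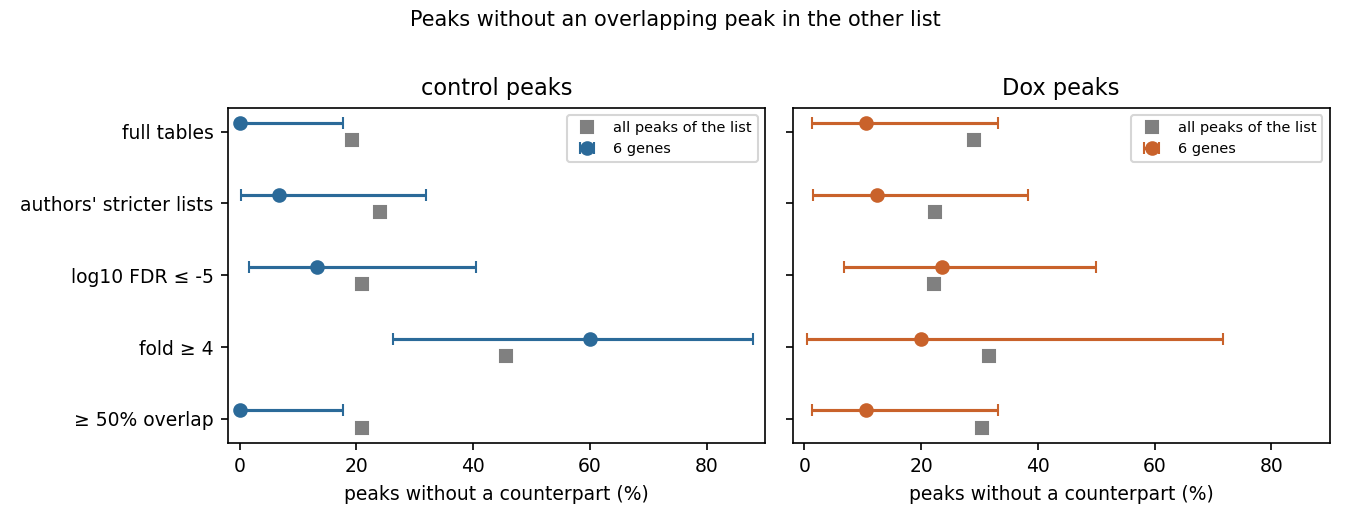
Percentage of peaks that no peak of the opposite list overlapped, for control peaks (left) and Dox peaks (right), under 5 choices of filter or overlap; coloured points are the peaks of the 6 genes with exact 95% intervals, grey squares all peaks of the list. For control peaks the members lie below all peaks in the full tables (0% and 19.3%) and above them at fold 4 or more (60% and 45.7%).

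Relatives of the members and the signals above them were read from lists chosen by function. Of all identifiers with a peak, 79.9% had peaks in both lists, and the counts of genes below stand against that share. In the KLF family outside the members, 10 of 14 genes had peaks, all 10 in both lists, and 1 of their 28 control peaks and 6 of their 31 Dox peaks had no counterpart (3.57% and 19.4%, against 19.3% and 29.1% of all peaks). Klf15 (26.0) and Klf13 (14.1) had the highest control folds and Klf7 (14.6) the highest Dox fold. In the related SP family 7 of 9 genes had peaks, 6 of them in both lists. Unmatched were 2 of 19 SP peaks in control and 2 of 17 in Dox (10.5% and 11.8%, against 19.3% and 29.1% of all). Sp8 (24.6, log10 FDR -5.08) was found in control only, and Sp2 and Sp5 followed with 22.1 each. Sp2 also had the highest Dox fold, 14.1.

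The families of the other members, lists of 5, 16 and 1 genes, held fewer peaks in all than the KLF and SP lists of 14 and 9 genes. These totals depend on the length of each list and are not a comparison per gene. Of 5 CP2 and grainyhead genes related to Tfcp2l1, 4 had peaks, and 3 of these had them in both lists, against 79.9% of all identifiers with a peak. Of their peaks, 3 of 7 in control and 4 of 8 in Dox were unmatched (42.9% and 50%, against 19.3% and 29.1% of all). Grhl2 led both lists (14.8 and 15.2) with weak peaks, its lowest log10 FDR being -2.60 in control and -2.86 in Dox, and Ubp1, a widely expressed CP2 factor, followed in control (9.73). Of 16 other T-box genes 6 had peaks, and 2 of these had them in both lists, against 79.9% of all identifiers with a peak. Unmatched were 4 of 11 T-box peaks in control and 4 of 9 in Dox (36.4% and 44.4%, against 19.3% and 29.1% of all). T (33.2) and Tbx18 (14.8) were among 3 found in control alone, and Eomes (17.4) was the 1 found in Dox alone, all with log10 FDRs no lower than -7.69. Of these relatives only Mga had as many control peaks as Tbx3, with -15.2 as its lowest log10 FDR in control. Gbx1, the only relative of Gbx2, had 1 weak control peak (14.8, log10 FDR -2.60) and 2 Dox peaks.

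Upstream, all 17 listed genes of LIF signalling and of the pathways that 2i blocks had peaks. Of these, 15 had them in both lists, against 79.9% of all identifiers with a peak. Of their 47 control peaks 5 had no Dox peak, and of their 53 Dox peaks 17 had no control peak. These are 10.6% and 32.1%, against 19.3% and 29.1% of all peaks, so the Dox share is near that of the whole list. Stat3 (27.1), the transducer of LIF, and Ctnnb1 (27.1), the β-catenin gene, had the highest control folds, and Map2k1 (8.13), a MEK gene, the highest Dox fold. Among 13 partners of the naive network all had peaks, 11 in both lists (against the same 79.9%) and 2, Prdm14 and Tcl1, in Dox only. Of these partners' peaks 1 of 25 in control and 5 of 28 in Dox were unmatched (4% and 17.9%, against 19.3% and 29.1% of all). Nr0b1 led both lists (34.7 and 6.58), and Esrrb followed in control (11.4).

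The genes most like each member were found by equal peak numbers in both lists and the smallest distance between highest folds on a log2 scale, over 2 values per gene. They were Slc1a5 for Klf2 (folds 12.5 and 4.10 against 12.4 and 4.00), Sh3d19 for Klf4 (5.33 and 4.04 against 5.13 and 4.18) and Stk24 for Klf5 (19.7 and 3.54 against 19.5 and 3.42). For the others they were Cfap36 for Tfcp2l1 (3.84 and 3.51 against 3.89 and 3.56), Ptpn11 for Tbx3 (10.1 and 5.36 against 9.50 and 5.65) and Lzts2 for Gbx2 (28.4 and 9.19 against 26.7 and 8.99). Distances ran from 0.028 for Tfcp2l1, with 232 candidates, to 0.12 for Tbx3, with 50.

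Peaks of marker genes were counted as a check of the labelled cell type. All 8 embryonic stem cell markers, among them Pou5f1, Sox2 and Nanog, had peaks in both lists, as did 79.9% of all identifiers with a peak. The lowest log10 FDR of each of them was -21.4 or less in control and -13.4 or less in Dox. Of 8 fibroblast markers 2 had peaks, Col1a1 in both lists and Pdgfrb in control only, and of 4 primitive endoderm markers 1 did, Gata4 in control only. None of these peaks had a log10 FDR below -5.08. Of 3 trophoblast markers 2 had peaks, Cdx2 in control only (lowest log10 FDR -8.74) and Gata3 in both lists. Gata3 had 1 peak in each list (log10 FDR -1.84 and -1.8), and these did not overlap. Of 4 primed epiblast markers 3 had peaks, Pou3f1 and Dnmt3b in both lists and Otx2 in Dox only. Their lowest log10 FDRs were -4.01 and -2.06 for Pou3f1, -117 and -143 for Dnmt3b, and -17.9 for Otx2. A peak shows that a transcript was sampled and gives no level, so neither the makeup of the cultures nor the extent of the knockdown can be read from these lists.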

How the data were processed

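The 8 m6A-seq libraries comprised 2 IP and 2 input libraries for each of the control and Dox conditions. FastQC 0.11.5, TopHat2 2.1.1 and mm10 are named in the submitters' processing notes, and the deposited tables are named for the peak caller exomePeak. Its version, the way it was run and its annotation were not given in these sources. The authors deposited 1 table per condition with the fold (a ratio of IP over input), the p-value of each peak and, per the file headers, the log10 of p and of FDR, each handled as a score. Each shorter list was checked to hold just the table's peaks of p up to 1e-05 and fold 2 or more. Replicates are pooled in every value, and whether they came from separate cultures is not given.

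The Ensembl identifiers of the tables were named by the protein-coding gene in RefSeq (GRCm38.p6) that held at least 50% of their peak midpoints, on the same strand where the strand was known. This named 10679 of 13110 identifiers (81.5%). Peaks overlap when their exonic blocks share at least 1 nt on the same strand. Coordinates are 1-based. The members, the gene lists and the rule for named genes were chosen with earlier results of these data known. The rule took all members and, from each list, the 2 highest control folds, ties included, and the highest Dox fold. Gbx1, Mga, Prdm14, Tcl1 and the markers were named outside it, after their values were seen. The ranks of 5′-most peaks, the peaks on opposite strands and the start windows were examined after the data were seen. Exon annotation and genome sequence were not used here, so coding and untranslated parts and motifs inside peaks were not analysed. Intervals are exact (Clopper-Pearson, 95%). Alternatives were the authors' stricter lists, filters on FDR and fold, other overlap rules and symbols assigned without the strand. Python 3.11.15, numpy 2.4.6, pandas 2.3.3, scipy 1.17.1 and matplotlib 3.10.9 were used. The overlap code was tested on simulated data, 300 peaks per list, with 0 errors.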

Additional observations from a re-analysis of the deposited data

How the results depend on the processing

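The share of the members' control peaks without a Dox peak was 0% in the full tables and lay between 0% and 13.3% under the authors' stricter lists, an FDR filter on both lists (log10 FDR up to -5), either other overlap rule, the one-sided FDR filter and symbols assigned without the strand. When only peaks of fold 4 or more were taken it was 60%, and the members then had 10 control and 5 Dox peaks, fewer than 19 because peaks of lower fold are left out. The share of Dox peaks without a control peak lay between 10.5% and 23.5% under all of these. With the FDR filter on both lists, 13.3% of the members' control peaks and 23.5% of their Dox peaks were unmatched, against 21.0% and 22.3% of all. Under the one-sided filter, where filtered peaks met the other list in full, the shares were 0% and 11.8%, against 7.56% and 11.6%. The members' Dox share was thus near that of all Dox peaks under either FDR filter. All 6 members had peaks in both lists under every filter but the one on fold, where 4 did. The share of all identifiers is given for the full tables only (79.9%), so these counts have no background under the filters. Without the strand, Gbx2 took the peaks of the plus-strand identifier ENSMUSG00000092627.2. Ranking by log10 p, an alternative added after the data were seen, put the 5′-most peak first in 1 of 5 members in control and in 0 of 5 in Dox, in place of 4 and 1. Over all 5489 genes with at least 2 peaks in both lists, that ranking gave 33.0% and 28.0%. With an FDR filter, also added later, the counts by fold were 3 and 1 of 4, against 53.8% and 44.0% of 3172 genes. No replicate could be left out, and no paired analysis was possible because each list pools both replicates. Depth is unknown, so weak peaks of Gbx2, Klf4, Klf5 and Tbx3 may be missed in either list.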
